A study of Mus musculus with 4 samples.

Results

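The 86 genes described here are the membrane carriers that the array names as ABC transporters of subfamilies A to G, organic anion transporting polypeptides (Slco) and Slc22a solute carriers, out of 19938 genes measured. All genes with a matching symbol were taken: 48 ABC genes, 15 Slco genes and 23 Slc22a genes. The choice of these families was made with earlier results of these data known. Their transcripts were measured in total RNA of whole mouse liver, with 1 Affymetrix gene array for each of 4 groups. The groups KO at 8 months and KO at 2 months came from mice labelled SIRT6Co/Co ;Alb-Cre, which carry a conditional allele of Sirt6 and Cre recombinase driven by the albumin promoter, active in hepatocytes. The other groups, WT at 8 months and WT at 2 months, carried wild type SIRT6, and the labels name no Cre in them. Each group is 1 array of RNA combined from 3 pairs of mice, so the spread between animals is not measured. The labels do not say in which cells of the liver the allele was recombined. The labels do not say whether the mice were littermates or which sex they had.

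Hepatocytes are polarized. Carriers of the Slco and Slc22 families on the blood-facing, basolateral membrane take up bile salts, drugs, hormones and carnitine. ABC transporters, which spend ATP, export bile salts, phospholipids, sterols and conjugates through the canalicular membrane into bile, or back into blood through the basolateral membrane. Other ABC proteins work in peroxisomes, lysosomes and mitochondria, and those of subfamilies E and F bind ribosomes and transport nothing.

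The values are log2 values from RMA, a method that corrects, normalizes and summarises probe signals. Because probe sets differ in binding strength, levels of different genes are not compared. A gene entered the tests when the average of its 4 values was above 3.34, a level that 40% of the measured genes did not exceed. This left 54 of the 86 carriers and 11963 genes in all. The genotype test was an additive limma model of genotype and age over all 4 arrays with Benjamini-Hochberg adjustment over the 11963 genes. Its single residual degree of freedom per gene is the departure of the 2 ages from each other, moderated across genes. The variance used for a gene comes mostly from all genes together (weight 11.3, against 1 for its own ages). The p-values therefore set the mean difference mainly against how far the ages depart from each other over all genes. A small p-value does not show that the ages repeat each other for that gene, and it does not measure the spread between animals or pools. Rose and fell are used only for genes with an adjusted p below 0.05.

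The Sirt6 probe set did not separate the labels. It read 4.46 at 8 months and 4.54 at 2 months under the KO label, against 4.50 and 4.55 under the WT label, and its limma adjusted p was 0.92. Which part of the gene this probe set reads is not known here, and it neither bears out nor contradicts the labels. The arrays are called KO-labelled and WT-labelled below. Of 7 measured hepatocyte markers, which include Alb and Apob, all were above the filter and none passed the genotype test, and Alb read 12.5 to 12.6 on every array. The KO minus WT difference of Cps1 was -0.29 at 8 months and -0.19 at 2 months. That of Apoa1 was -0.24 and -0.23 (limma adjusted p 0.0594 for Cps1 and 0.0596 for Apoa1). Ttr, Glul and Tat were higher at both ages.

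Some markers of other liver cells moved with the label, where 11.1% of all genes were called in either direction. Of 6 Kupffer cell markers above the filter 2 rose, Cd5l and Vsig4, and none fell. Csf1r, Cd68 and Adgre1 were higher at both ages without passing. Clec4f was at 0.06 at 8 months and -0.04 at 2 months (limma adjusted p 0.972). The mean log2 level over the 7 measured Kupffer markers was 5.26 at 8 months and 5.34 at 2 months in the KO-labelled arrays, against 4.95 and 5.07 in the WT-labelled arrays. Of 7 stellate cell markers Acta2, Vim, Col1a1 and Col3a1 fell and Reln rose. Des, at -0.10 at 8 months and 0.03 at 2 months, and Lrat, at -0.13 and 0.26, did not pass. The mean levels of the 7 at 8 and 2 months were 5.26 and 5.36 in the KO-labelled arrays, against 5.69 and 5.93 in the WT-labelled arrays. Among 7 endothelial markers 1 rose, Cdh5, and the mean levels were 5.69 and 5.80 in the KO-labelled arrays, against 5.64 and 5.64 in the WT-labelled arrays. Lyve1 was higher at both ages, at 0.26 at 8 months and 0.63 at 2 months, without passing (limma adjusted p 0.0577). The median difference of that list was -0.02 at 8 months and -0.04 at 2 months. Stab2, Clec4g and Tek were lower at both ages without passing, and Pecam1 and Kdr had opposite signs at the ages. Of the 5 measured cholangiocyte markers 3 were above the filter and none passed, and of the 5 measured lymphocyte and 5 kidney tubule markers 4 each were below the filter. In whole liver, fewer cells of a type and less RNA per cell cannot be told apart.

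Of the 54 carriers tested, 11 rose and 6 fell, and 37 were not called. This is 20.4% and 11.1% of them, beside 6.81% and 4.26% of all genes tested. Abcb1a, Abcc4, Slc22a26, Slc22a30, Abca9, Abcb11, Abcg2, Abca3, Slc22a23, Slc22a7 and Abca1 rose, and Abcc6, Slc22a5, Slco1a4, Slc22a4, Abcb6 and Abcg8 fell. The effects were modest, from 1.24-fold for Abca1 to 1.96-fold for Abcc6. In each of the 17 genes both KO-labelled arrays lay on the same side of both WT-labelled arrays. The call rests on these same values and favours this, so it is no further evidence. Over the 54 tested carriers both KO-labelled arrays lay above both WT-labelled arrays in 23 (42.6%) and below them in 18 (33.3%), beside 29.1% and 25.7% of all genes. The median KO minus WT difference of the 54 carriers was 0.04 log2 units at 8 months and 0.07 at 2 months, and that of all genes 0.00 and 0.01.

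**Figure D1:**
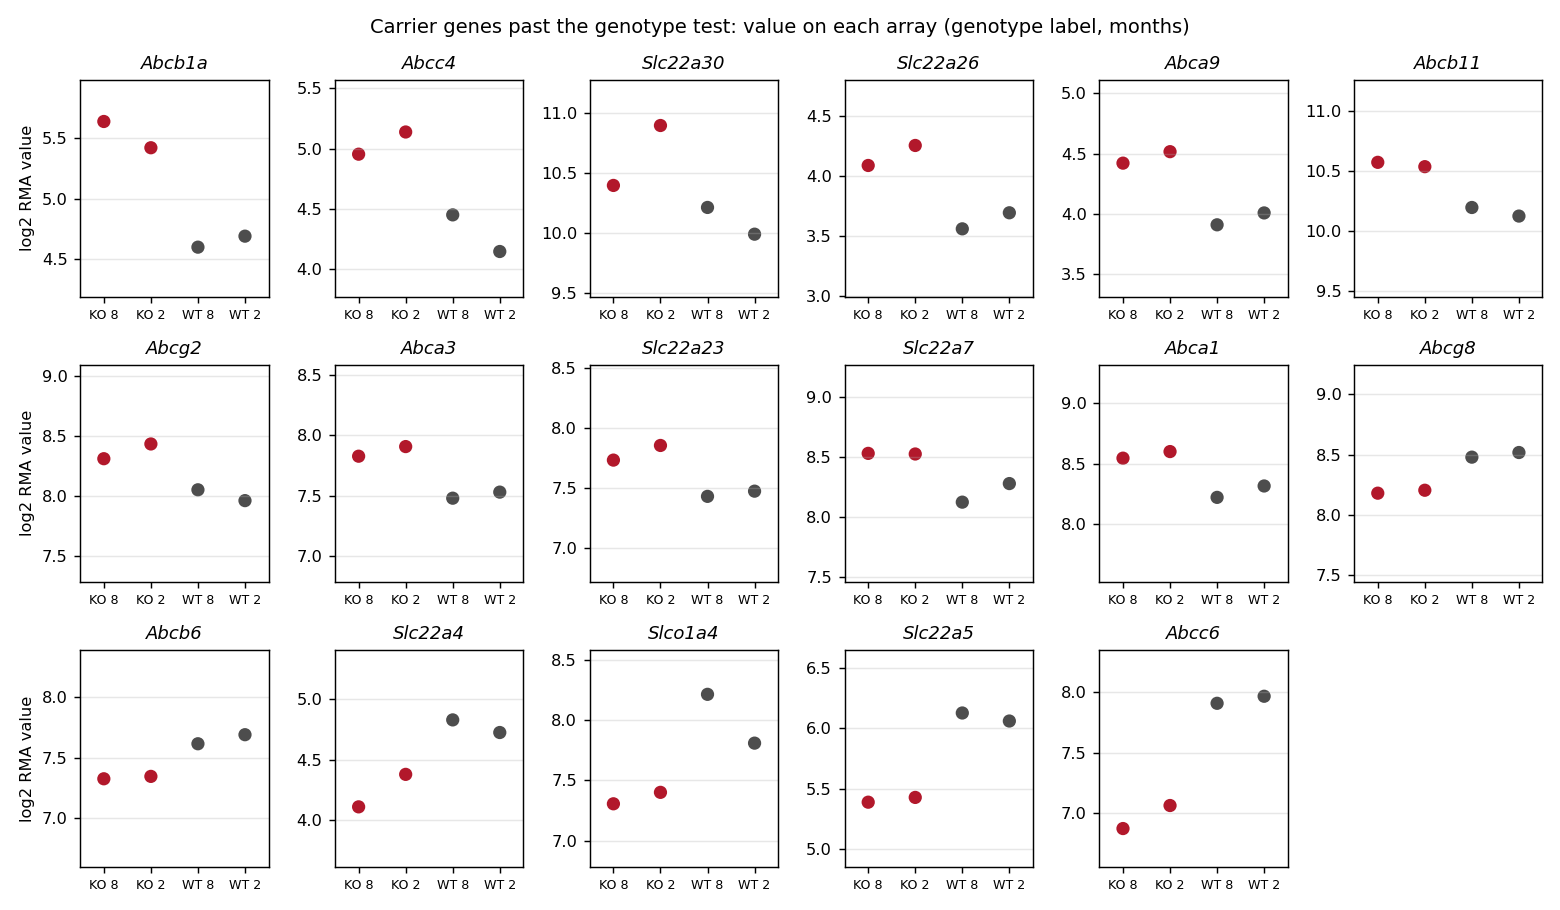
The log2 RMA value on each array (y axis, each panel spanning the same range) of the 17 carriers past the genotype test, ordered from the most raised to the most lowered. Red points are KO-labelled and grey points WT-labelled arrays, at 8 and 2 months. Each point is 1 array of pooled RNA. In no panel do the labels overlap, which the test on these same values favours.

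A 1.5-fold difference that repeated at both ages was seen in 3 of the 54 carriers. Abcb1a was higher, where 1.78% of all genes were, and Abcc6 and Slc22a5 were lower, where 1.06% were. At 8 months, whatever the value at 2 months, 2 carriers were at least 1.5-fold higher and 4 lower, beside 2.41% and 1.93% of all genes. At 2 months, whatever the value at 8 months, 3 were higher and 2 lower, beside 3.98% and 2.39%. Calls of the smaller differences were often lost under other settings. Without the expression filter 11 of the 17 calls were lost, and without the intensity trend 9 were lost. How many calls of all genes were lost in the same way was not counted. The calls of Abcc6, Abcb1a, Slc22a5, Slco1a4 and Abcc4 held under all 9 alternatives tried, with adjusted p of at most 0.0306 in limma.

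**Figure D2:**
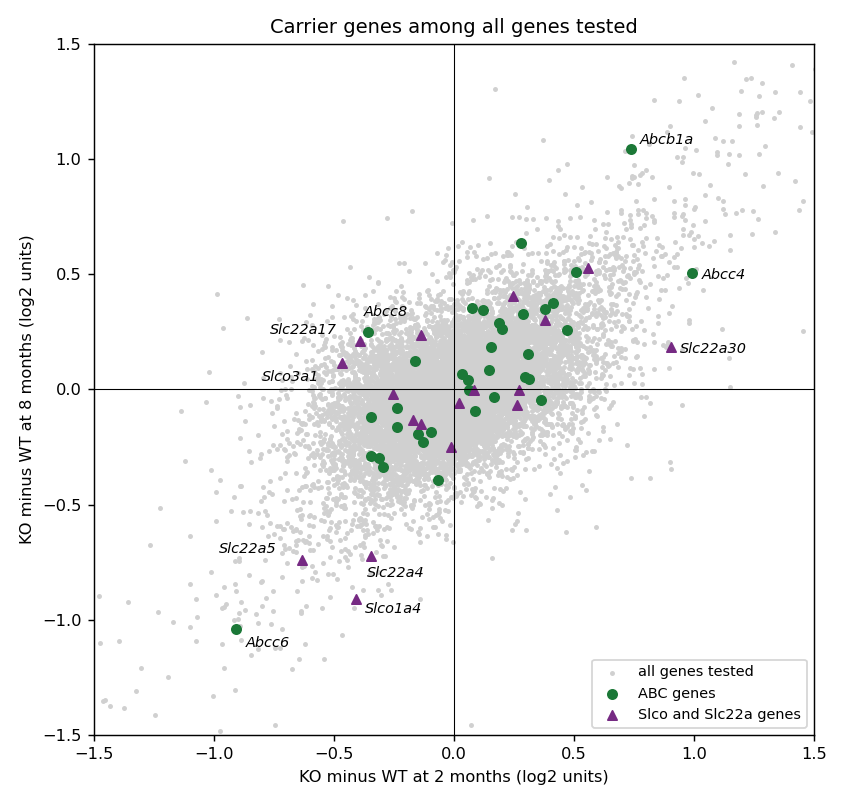
KO minus WT in log2 units at 2 months (x axis) and at 8 months (y axis). Grey points are all genes tested, green circles ABC genes and purple triangles Slco and Slc22a genes, and 73 genes lie outside the plotted range of 1.5 log2 units on either axis. Abcb1a and Abcc4 lie to the upper right and Abcc6, Slc22a5 and Slco1a4 to the lower left, while Slc22a30 is far from 0 on the 2-month axis alone.

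On the canalicular membrane Abcb1a, Abcb11 and Abcg2 were higher and Abcg8 was lower, while Abcb4, Abcc2 and Abcg5 were not called. Of 8 canalicular exporters 7 were above the filter, and of these 3 rose, 1 fell and 3 were not called. The class median of KO minus WT was 0.07 log2 units at 8 months and 0.09 at 2 months.

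Abcb1a encodes a P-glycoprotein that expels drugs and other hydrophobic compounds. It read 5.64 at 8 months and 5.42 at 2 months in the KO-labelled arrays, against 4.60 and 4.69 in the WT-labelled arrays. Both KO-labelled values lay above both WT-labelled ones, and the mean difference was 0.89 (SE 0.13, 1.85-fold, limma adjusted p 0.000575). Abcb1b, the neighbouring gene of the other mouse P-glycoprotein, was below the filter with values of 2.63 to 2.87. P-glycoprotein is also found in endothelial cells, and the part of endothelial or Kupffer cells in this difference was not tested.

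The bile salt export pump Abcb11, which drives the secretion of bile salts into bile, read 10.57 and 10.54 at 8 and 2 months in the KO-labelled arrays, against 10.20 and 10.13 in the WT-labelled arrays. The ages repeated each other closely, with a mean difference of 0.39 (SE 0.07, adjusted p 0.00395), though the call was lost without the intensity trend (adjusted p 0.0624). Abcg2, the breast cancer resistance protein that exports sulfate conjugates, porphyrins and urate, read 8.31 and 8.43 at 8 and 2 months in the KO-labelled arrays, against 8.05 and 7.96 in the WT-labelled arrays. It rose by a mean of 0.36 (SE 0.09, adjusted p 0.0160), which was lost without the filter and without the trend (adjusted p up to 0.0925).

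Abcg5 and Abcg8 form the sterol exporter as obligate partners and lie side by side on chromosome 17, yet only Abcg8 was called. Abcg8 read 8.18 and 8.20 at 8 and 2 months in the KO-labelled arrays, against 8.48 and 8.52 in the WT-labelled arrays. It fell by 0.31 on the log2 scale (SE 0.08, adjusted p 0.0263), a call lost under 3 alternatives (adjusted p up to 0.177). Abcg5 differed by 0.07 at 8 months and 0.03 at 2 months with an adjusted p of 0.76. Whether the partners differ from each other was not tested.

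The remaining canalicular pumps had small differences. Abcc2, the exporter of bilirubin glucuronides and glutathione conjugates, read 10.53 and 10.52 in the KO-labelled arrays at 8 and 2 months, against 10.50 and 10.46 in the WT-labelled arrays (adjusted p 0.757). Abcb4, which moves phosphatidylcholine into bile, was at -0.09 at 8 months and 0.09 at 2 months, with an adjusted p of 0.992.

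**Figure D3:**
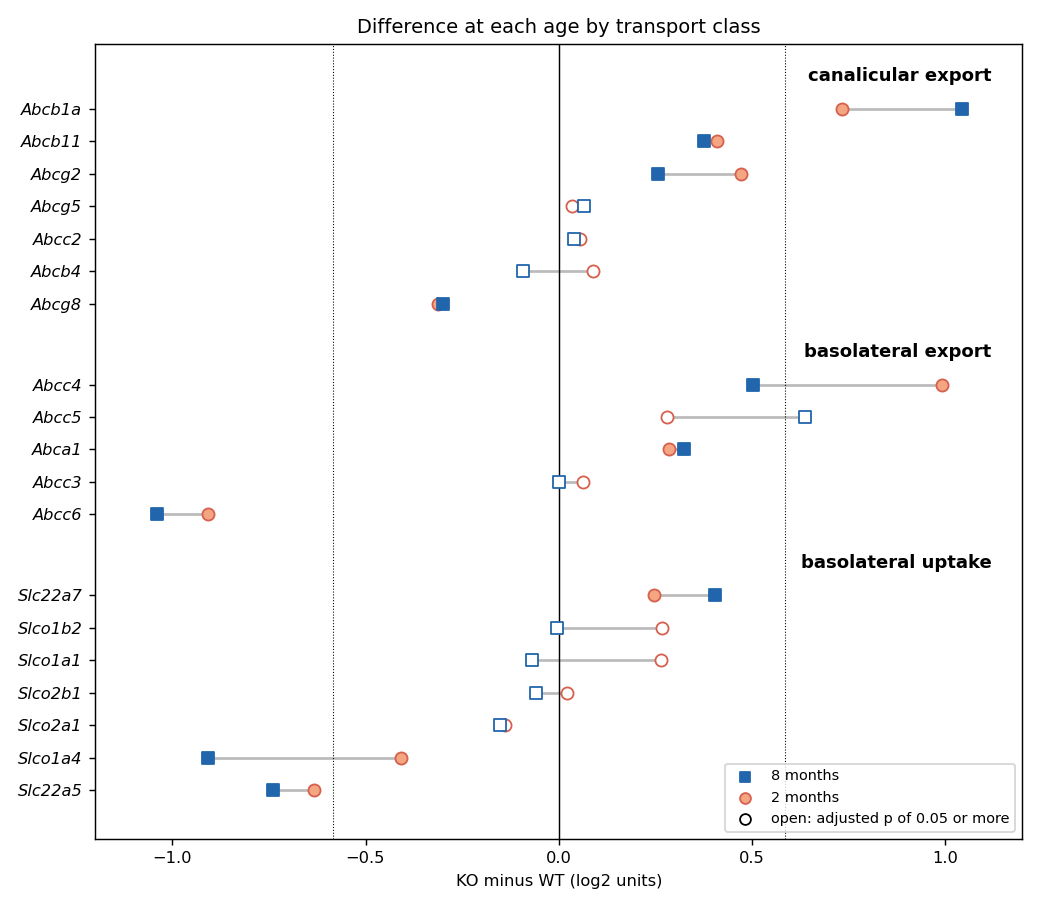
KO minus WT in log2 units (x axis) at 8 months (squares) and 2 months (circles) for the 19 tested carriers of the canalicular export, basolateral export and basolateral uptake classes. Filled symbols mark genes past the genotype test, dotted lines mark 1.5-fold, and grey lines join the ages. Each class holds genes on both sides of 0, from Abcb1a to Abcg8, from Abcc4 to Abcc6 and from Slc22a7 to Slc22a5.

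Exporters of the basolateral membrane moved in both directions. Of 6 in this class 5 were above the filter, and of these Abcc4 and Abca1 rose, Abcc6 fell and 2 were not called. The class median was 0.33 at 8 months and 0.28 at 2 months. The median over genes of each gene's mean difference over the ages depended on the filter. It was 0.31 as tested and 0.17 at a filter at the 60th percentile, which leaves Abcc5 out.

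Abcc6 was the most lowered carrier tested. It encodes a basolateral ABC protein through which hepatocytes release ATP, and its loss causes ectopic calcification in humans. It read 6.87 at 8 months and 7.06 at 2 months in the KO-labelled arrays, against 7.91 and 7.97 in the WT-labelled arrays. Its difference was -1.04 at 8 months and -0.91 at 2 months, the labels were far apart at each age, and Abcc6 fell by 0.97 (SE 0.09, 1.96-fold, adjusted p 1.13e-05).

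Abcc4, which returns bile salts, cyclic nucleotides and steroid sulfates to blood, was higher in the KO-labelled arrays. Its values were 4.95 at 8 months and 5.14 at 2 months there, against 4.45 and 4.14 in the WT-labelled arrays. The labels did not overlap, but the difference was 0.50 at 8 months and 0.99 at 2 months. It rose by a mean of 0.75 (SE 0.14, 1.68-fold, adjusted p 0.00454), and whether the ages differ could not be tested with 1 array a group.

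Abca1, which loads cholesterol and phospholipid onto apolipoprotein A-I and is active in hepatocytes and macrophages, read 8.54 and 8.60 at 8 and 2 months in the KO-labelled arrays, against 8.22 and 8.31 in the WT-labelled arrays. It rose by 0.31 (SE 0.08, adjusted p 0.0262), and this call was lost under 3 alternatives (adjusted p up to 0.125). The part of the higher Kupffer cell markers in it was not tested. Abcg1, the cholesterol exporter of macrophages, was at 0.09 and 0.14 and did not pass.

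Abcc5, another exporter of cyclic nucleotides, was at 0.64 at 8 months and 0.28 at 2 months without passing (adjusted p 0.0577). It passed under median centring, repeated quantile normalization and cyclic loess (adjusted p 0.00571 to 0.00985). Abcc3, which exports glucuronides to blood, was at 0.00 and 0.06 with values of 9.35 to 9.42 on the 4 arrays. Abcc1 was below the filter, at 3.04 to 3.23.

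Among the uptake carriers, the carnitine carrier Slc22a5 and the bile salt carrier Slco1a4 were lower, and 4 of the 5 Slco carriers of this class were not called. Of 7 basolateral uptake carriers, all above the filter, 1 rose, 2 fell and 4 did not pass. The class medians were -0.07 at 8 months and 0.02 at 2 months.

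Slc22a5 encodes the sodium-dependent carnitine carrier, which supplies carnitine for fatty acid oxidation in mitochondria. It read 5.39 at 8 months and 5.43 at 2 months in the KO-labelled arrays, against 6.13 and 6.06 in the WT-labelled arrays. All 4 values fell into pairs by label, and it fell by 0.69 (SE 0.11, 1.61-fold, adjusted p 0.00112). Slc22a4, the ergothioneine carrier of the same cluster on chromosome 11, had 4.11 and 4.38 in the KO-labelled arrays, against 4.83 and 4.72 in the WT-labelled arrays. It fell by 0.53 (SE 0.14, adjusted p 0.0256), a call lost without the filter (adjusted p 0.0849). Slc22a21, a carnitine carrier gene of the mouse that lies between them, was just below the filter with a mean of 3.23. It read 3.05 and 3.00 at 8 and 2 months in the KO-labelled arrays, against 3.54 and 3.32 in the WT-labelled arrays, and was not tested.

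Slco1a4 takes up bile salts, steroid conjugates and cardiac glycosides. It read 7.31 at 8 months and 7.40 at 2 months in the KO-labelled arrays, against 8.21 and 7.81 in the WT-labelled arrays. The WT-labelled array at 8 months stood highest, and the difference was -0.91 at 8 months and -0.41 at 2 months. Slco1a4 fell by 0.66 (SE 0.11, 1.58-fold, adjusted p 0.00169). Among related genes beside it on chromosome 6, Slco1c1, Slco1a6 and Slco1a5 were below the filter and not tested. The other related genes there, Slco1a1 and Slco1b2, were not called. Slco1a1, a carrier of organic anions and steroid conjugates, was at -0.07 at 8 months and 0.26 at 2 months. Slco1b2, the mouse counterpart of the human OATP1B carriers, was at 0.00 and 0.27, and neither passed (adjusted p 0.548 and 0.366).

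The member that rose was Slc22a7, an organic anion carrier of the basolateral membrane, with 8.53 and 8.52 in the KO-labelled arrays at 8 and 2 months, against 8.12 and 8.28 in the WT-labelled arrays. It rose by 0.33 (SE 0.08, adjusted p 0.0236), a call lost without the filter and without the trend (adjusted p up to 0.116). Slco2b1, another organic anion carrier, was at -0.06 at 8 months and 0.02 at 2 months. The prostaglandin carrier Slco2a1, which endothelial cells carry too, was at -0.15 and -0.14 (adjusted p 0.329).

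Canalicular export, basolateral export and basolateral uptake each held genes that rose and genes that fell, 6 rising and 4 falling among 19 tested. No test of a difference between classes was made, and each class is described by its counts and median alone.

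Promoters of called carriers are printed so that the sequence at their starts can be read beside the values. The windows run from 250 bases before to 50 bases after the transcript start, are from RefSeq on GRCm38.p6, and were found for 71 of the 86 carriers. For each direction the 3 called genes of the named classes with the smallest adjusted p and an entry are printed 5′ to 3′ on the gene's strand. Capitals mark matches on either strand to any of 7 motifs, and adjoining or overlapping matches run together. The motifs were TGACNNNGC (the core of the antioxidant response element), TGANTCA (AP-1) and AGGTCA (a nuclear receptor half-site). The others were GGGCGG (the GC box), CACGTG (the E-box), CCAAT and TATAAA. Abcb1a lies at chr5:8566841-8567140 on the plus strand, Abcb11 at chr2:69342567-69342866 on the minus strand, and the first and second listed starts of Abcc4 at chr14:118706170-118706469 and chr14:118676882-118677181 on the minus strand. Of the genes that fell, Slc22a5 lies at chr11:53891654-53891953 and Slco1a4 at chr6:141856171-141856470, both on the minus strand, and the first listed start of Abcg8 at chr17:84682871-84683170 on the plus strand.
Abcb1a: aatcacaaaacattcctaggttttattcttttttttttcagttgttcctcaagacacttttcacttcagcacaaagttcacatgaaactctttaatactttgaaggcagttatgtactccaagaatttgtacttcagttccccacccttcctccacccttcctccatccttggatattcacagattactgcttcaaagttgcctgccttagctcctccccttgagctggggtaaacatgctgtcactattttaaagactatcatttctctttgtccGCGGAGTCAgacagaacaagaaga
Abcb11: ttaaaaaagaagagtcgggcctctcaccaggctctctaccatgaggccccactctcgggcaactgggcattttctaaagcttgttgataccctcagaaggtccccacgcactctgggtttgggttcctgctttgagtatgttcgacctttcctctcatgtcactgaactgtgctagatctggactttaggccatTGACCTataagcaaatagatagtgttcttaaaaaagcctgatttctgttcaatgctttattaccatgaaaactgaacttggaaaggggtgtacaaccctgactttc
Abcc4, first start: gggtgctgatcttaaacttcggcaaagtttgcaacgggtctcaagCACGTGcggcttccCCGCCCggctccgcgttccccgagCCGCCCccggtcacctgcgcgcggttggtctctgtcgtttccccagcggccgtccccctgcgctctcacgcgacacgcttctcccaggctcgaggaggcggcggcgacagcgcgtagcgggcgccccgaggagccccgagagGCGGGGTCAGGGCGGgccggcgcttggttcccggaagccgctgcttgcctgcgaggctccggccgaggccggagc
Abcc4, second start: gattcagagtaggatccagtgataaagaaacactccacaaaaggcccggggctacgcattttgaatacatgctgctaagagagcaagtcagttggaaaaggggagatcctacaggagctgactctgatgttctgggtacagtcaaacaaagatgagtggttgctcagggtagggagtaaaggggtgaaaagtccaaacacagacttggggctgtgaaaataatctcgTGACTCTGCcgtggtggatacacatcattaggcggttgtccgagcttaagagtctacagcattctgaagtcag
Slc22a5: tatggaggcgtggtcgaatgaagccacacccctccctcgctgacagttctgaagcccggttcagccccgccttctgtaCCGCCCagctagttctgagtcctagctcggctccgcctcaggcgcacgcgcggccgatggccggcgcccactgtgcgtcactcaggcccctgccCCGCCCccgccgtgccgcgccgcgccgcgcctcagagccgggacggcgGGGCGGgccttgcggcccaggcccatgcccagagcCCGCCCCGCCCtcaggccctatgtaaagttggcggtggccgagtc
Slco1a4: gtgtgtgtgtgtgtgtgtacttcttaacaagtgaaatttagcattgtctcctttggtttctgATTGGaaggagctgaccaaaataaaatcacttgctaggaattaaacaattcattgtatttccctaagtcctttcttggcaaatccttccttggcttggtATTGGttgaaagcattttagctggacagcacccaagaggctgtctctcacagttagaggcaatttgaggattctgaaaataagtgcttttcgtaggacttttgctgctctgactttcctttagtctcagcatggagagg
Abcg8, first start: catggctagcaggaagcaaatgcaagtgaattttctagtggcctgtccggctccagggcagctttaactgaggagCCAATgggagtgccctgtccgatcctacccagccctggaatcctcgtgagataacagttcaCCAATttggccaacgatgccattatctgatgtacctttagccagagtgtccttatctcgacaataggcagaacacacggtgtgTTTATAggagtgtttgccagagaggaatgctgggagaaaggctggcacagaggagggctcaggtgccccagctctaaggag

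The antioxidant response core was found in Abcb1a and at both starts of Abcc4, and in none of the other promoters listed for called carriers, whether they rose or fell. This core is in 12.4% of all 32851 promoters of the same length and in 7 of the 51 promoters of tested carriers. Abcb11 has 1 nuclear receptor half-site, a motif found in 16.3% of all promoters. Slc22a5 has 5 GC boxes and Abcc4 has 3 at its first start, where 35.7% of all promoters have at least 1. Slco1a4 has 2 CCAAT matches, found in 37.4% of all promoters, and Abcg8 has 2 CCAAT matches and 1 TATA box at the printed start and no match at its other start. TATA boxes are in 13.6%, E-boxes in 7.15% and AP-1 sites in 7.81% of all promoters, and the first start of Abcc4 holds 1 E-box. A match is a description of the letters and not a bound site.

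Outside the 3 classes 7 carriers passed the test, 5 that rose and 2 that fell. Slc22a30 and Slc22a26, members of the organic anion carrier cluster on chromosome 19, were higher in the KO-labelled arrays, as were Abca3, Abca9 and Slc22a23. Slc22a4, described above, and the mitochondrial porphyrin transporter Abcb6 were lower.

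Slc22a30 read 10.39 at 8 months and 10.89 at 2 months in the KO-labelled arrays, against 10.21 and 9.99 in the WT-labelled arrays. The KO-labelled array at 2 months stood apart from the other 3, and the difference was 0.18 at 8 months and 0.90 at 2 months. Its mean of 0.54 (SE 0.13, adjusted p 0.0149) was lost under 3 alternatives, with an adjusted p of 0.141 under robust moderation. One further probe set is listed for Slc22a28, Slc22a30 and Slc22a29 together and was left out of the gene values. It read 10.02 and 10.07 at 8 and 2 months in the KO-labelled arrays, against 9.64 and 9.55 in the WT-labelled arrays, a difference of 0.37 and 0.52. Genes of this cluster are of close sequence, and probes may not fully separate them.

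Slc22a26 had 4.09 and 4.25 at 8 and 2 months in the KO-labelled arrays, against 3.56 and 3.69 in the WT-labelled arrays. Its differences of 0.53 and 0.56 were nearly equal at the ages, with a mean of 0.54 (SE 0.13, adjusted p 0.0188, and 0.0619 without the filter). The neighbours Slc22a27, Slc22a29, Slc22a19, Slc22a8 and Slc22a6 were all below the filter.

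The Abca genes of one cluster on chromosome 11 stood in the order Abca8b, Abca8a, Abca9, Abca6 and Abca5, and of these only Abca9 was called. Abca9 read 4.42 and 4.52 at 8 and 2 months in the KO-labelled arrays, against 3.91 and 4.01 in the WT-labelled arrays. It rose by 0.51 (SE 0.13, adjusted p 0.0238, and 0.0699 without the filter), with 0.51 at each age. Abca8a was at -0.20 at 8 months and -0.15 at 2 months and Abca6 at -0.19 and -0.10, neither past the test, and Abca8b and Abca5 were at 0.05 and -0.05 at 8 months and 0.29 and 0.36 at 2 months.

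**Figure D4:**
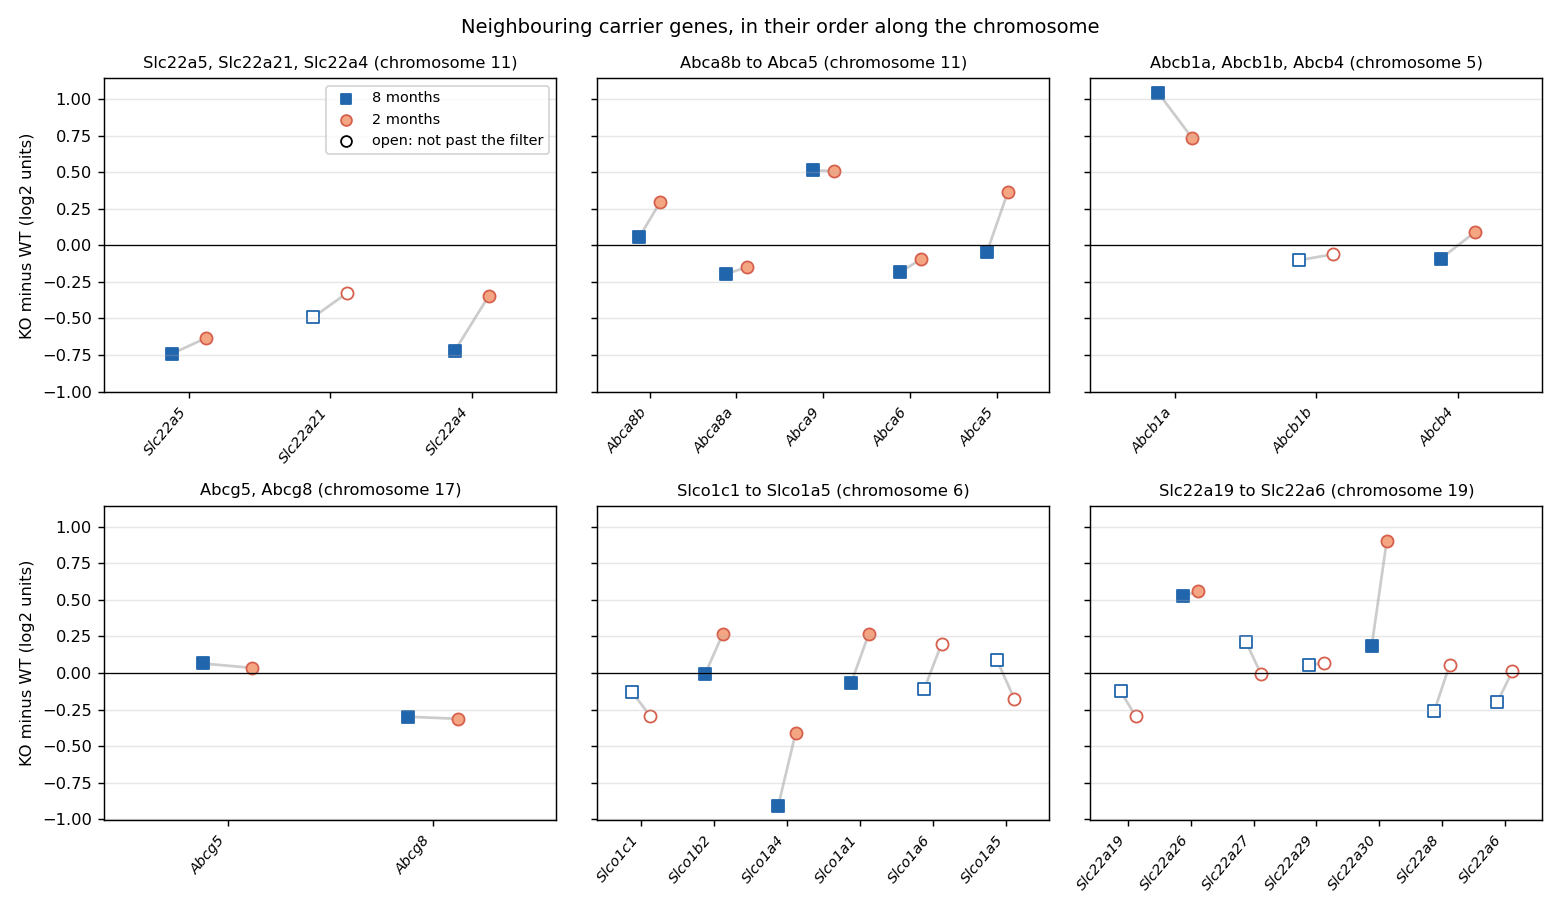
KO minus WT in log2 units (y axis) at 8 months (squares) and 2 months (circles) for neighbouring carriers in their chromosomal order, with open symbols for genes below the filter. Neighbours lie next to each other or with another protein-coding gene between them. Only some of the 12 groups found are drawn, and the group of Abca17 and the called Abca3 is not among them. Slc22a28 has no value of its own and is left out of the last panel. The Slc22a5, Slc22a21 and Slc22a4 neighbours lie below 0 at both ages. In the other 5 groups drawn, called genes stand beside some neighbours near 0 or on the other side of it. Abca8b and Abca5, at 0.29 and 0.36 at 2 months, lie on the side of Abca9 at that age. Genes below the filter were not tested, and RMA shrinks differences where signal is dim, so their values near 0 do not show a lack of change.

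Abca3, a lipid transporter known from the surfactant bodies of the lung, read 7.83 and 7.91 at 8 and 2 months in the KO-labelled arrays, against 7.48 and 7.53 in the WT-labelled arrays. It rose by 0.36 (SE 0.08, adjusted p 0.0141). Slc22a23, a carrier of unknown substrate, had 7.73 and 7.86 in the KO-labelled arrays, against 7.43 and 7.48 in the WT-labelled arrays and rose by 0.34 (adjusted p 0.0217). Both calls were lost without the filter and without the intensity trend.

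Of 6 tested ABC proteins of organelles, 1 fell and the other 5 were not called. Abcb6, which carries porphyrins at mitochondria, read 7.33 and 7.34 at 8 and 2 months in the KO-labelled arrays, against 7.62 and 7.69 in the WT-labelled arrays. It fell by 0.32 (SE 0.09, adjusted p 0.0312), and the call was lost under 3 alternatives (adjusted p up to 0.155). Of 4 measured erythroid markers Car1 and Alas2 rose, Slc4a1 did not pass and the erythroid factor Klf1 was at -0.38 at 8 months and -0.43 at 2 months without passing (adjusted p 0.0717), with a mean level over the 4 of 5.34 and 5.32 at 8 and 2 months in the KO-labelled arrays and 5.02 and 5.05 in the WT-labelled arrays. The part of erythroid cells in the Abcb6 value was not tested. The mitochondrial Abcb10 and Abcb8 were at -0.08 and -0.39 at 8 months and -0.24 and -0.07 at 2 months, without passing. In peroxisomes, Abcd3, which imports branched and long-chain acyl groups, was at -0.23 at 8 months and -0.13 at 2 months (adjusted p 0.154). The lysosomal cobalamin transporter Abcd4 was at -0.34 and -0.30 (adjusted p 0.107), and Abcd2 was at 0.12 and -0.16.

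The soluble ABC proteins work in translation. Abce1, which recycles ribosomes, was at 0.26 at 8 months and 0.20 at 2 months, Abcf2 at 0.29 and 0.19, Abcf3 at 0.15 and 0.31 and Abcf1 at -0.16 and -0.24. None of the 4 passed the test, with adjusted p of 0.0943 to 0.211. The 32 carriers below the filter had means of 1.76 to 3.23 and were not tested, among them Abca12, Abca4, Abcc12, Slc22a6, Slc22a8, Slco1a5, Slco4c1 and Slco6d1.

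Some carriers had opposite signs at the 2 ages. Abcc8, a sulfonylurea receptor, was at 0.25 at 8 months and -0.36 at 2 months. The lipocalin receptor gene Slc22a17 was at 0.21 and -0.39, and Slco3a1 was at 0.11 and -0.47. None of the 3 passed the genotype test.

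With age, no carrier was called. Between 8 and 2 months 0 of the 54 carriers passed limma at an adjusted p of 0.05 in either direction, and 0 had an unadjusted p below 0.05, beside 3.6% of all genes. Over all genes 0% were called higher and 0.00836% lower at 8 months. No carrier was 1.5-fold apart between the ages in either genotype, where 0.652% of all genes were in each. In the KO-labelled arrays the highest 8 minus 2 months differences were 0.42 for Slc22a17, 0.42 for Abcc5 and 0.35 for Abcc8, and the lowest were -0.50 for Slc22a30, -0.27 for Slc22a4 and -0.24 for Abcf3. In the WT-labelled arrays they were 0.41 for Slco1a4, 0.30 for Abcc4 and 0.28 for Abcb8, and -0.41 for Abcd2, -0.26 for Abcc8 and -0.25 for Slco3a1.

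**Figure D5:**
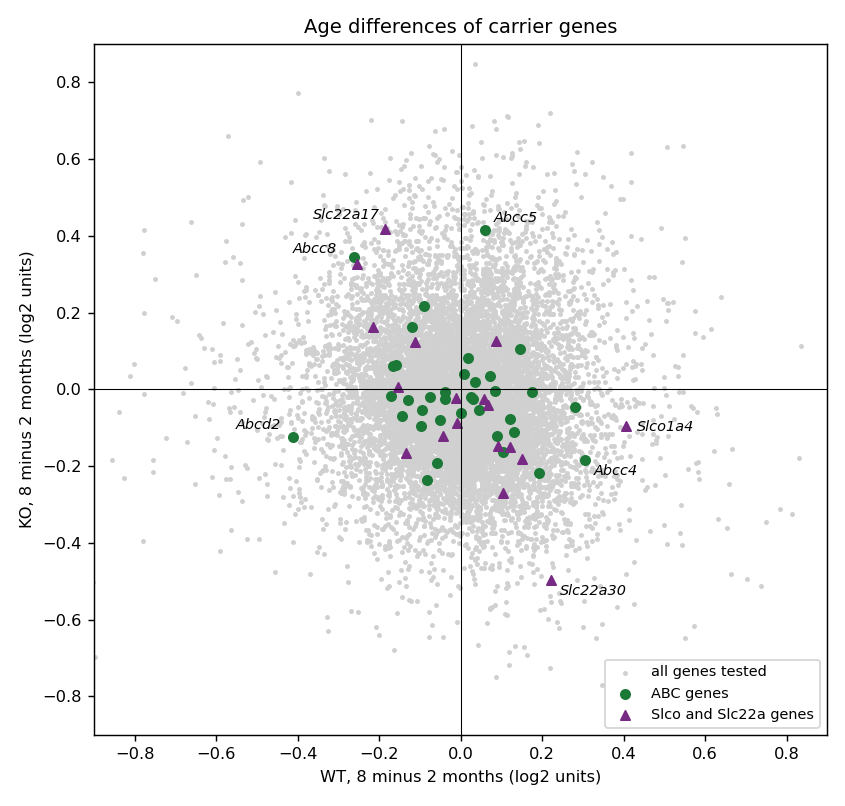
The difference of 8 minus 2 months in log2 units in the WT-labelled arrays (x axis) and the KO-labelled arrays (y axis). Grey points are all genes tested, green circles ABC genes and purple triangles Slco and Slc22a genes, and 21 genes lie outside the plotted range of 0.9 log2 units. Slc22a30 and Slco1a4, far from 0 on one axis, lie on the other side of 0 on the other axis.

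Genes that work with these carriers were read from 3 lists, beside 11.1% of all genes that were called in either direction. Of 19 listed carriers of bile and drugs outside the 3 families, 13 passed the filter, 1 rose and none fell. It was Slc10a2, the sodium-dependent bile salt carrier that takes up bile salts in ileum and bile ducts, with 7.25 and 7.37 at 8 and 2 months in the KO-labelled arrays and 7.01 and 6.54 in the WT-labelled arrays. It rose by 0.53 (SE 0.12, adjusted p 0.0137), with most of the difference at 2 months. Slc10a1, the main sodium-dependent bile salt carrier of hepatocytes, was at -0.26 at 8 months and -0.19 at 2 months (adjusted p 0.0766). Tap2, a subunit of the ABC peptide transporter of antigen presentation, was the lowest of the list with a mean of -0.38 and did not pass.

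Of 19 measured regulators of carrier genes, 3 fell and none rose, beside 4.26% and 6.81% of all genes. Nr1i3 (CAR), a xenobiotic receptor that induces carriers and enzymes of drug disposal, read 8.62 and 8.64 at 8 and 2 months in the KO-labelled arrays, against 9.57 and 9.60 in the WT-labelled arrays (adjusted p 3.66e-06). Ppara, the receptor that induces fatty acid oxidation and carnitine uptake, fell by 0.49 (adjusted p 0.00155), and the forkhead factor Foxa2 by 0.49 (adjusted p 0.0233). The bile salt receptor Nr1h4 was at 0.03 and 0.29 and the antioxidant regulator Nfe2l2, the highest of the list, at 0.15 and 0.35, neither past the test. Of the 13 genes for apical scaffolds and vesicle traffic, none passed, from Bsg at a mean of -0.18 to Ezr at 0.36. Whether any of these regulators bears on the carriers was not tested.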

How the data were processed

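Liver RNA of 4 groups (KO and WT labels at 8 and 2 months, 1 array each, RNA of 3 pairs of mice combined) was compared. Per the submitters' processing notes, the authors ran RMA in version 1.0v of Affymetrix Expression Console. The deposited values were taken as log2, as RMA gives them and as their range of 0.89 to 13.3 allows. The log base, probe annotation and build are not given in the sources used here. RMA shrinks differences where signal is dim, and a shift in total RNA per cell cannot be seen. Arrays have no read depth, and their number limits the precision.

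Of 35556 probe sets, 21789 have 1 gene symbol in the platform table, 1621 several and 12146 none listed. Single-symbol probe sets were averaged per gene (999 genes have several, among the carriers only Abcb5). RefSeq identifiers (GRCm38.p6) changed 0 symbols.

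The additive model (genotype and age) was fitted with lmFit and eBayes with an intensity trend in limma 3.58.1 (R 4.3.3), with a prior of 11.3 degrees of freedom, and was tested on simulated data. The carriers, transport classes, lists and rule for named genes were chosen with earlier results of these data known. Named are all carriers of the 3 classes, those past the test or 1.5-fold apart at both ages, and the 3 highest and lowest of each difference, and from the lists the genes past the test with the highest and lowest. Motifs, shown promoter starts and neighbours were chosen after the values were seen. Protein sequences and the comparison of protein motifs were not used here. The alternatives changed the filter, trend, moderation, normalization, probe set choice, fold and model.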

Additional observations from a re-analysis of the deposited data

Results flagged for a closer look

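In 13 of the 54 tested carriers, 9 of them given here, the KO minus WT difference had opposite signs at 8 and 2 months. With 1 array a group this was not tested. The 8-month difference minus the 2-month difference was 0.61 for Abcc8, 0.60 for Slc22a17, 0.58 for Slco3a1, 0.29 for Abcd2, -0.063 for Abcc3, -0.079 for Slco2b1, -0.18 for Abcb4, -0.27 for Slco1b2 and -0.33 for Slco1a1. The 8 minus 2 months difference had opposite signs in the labels in 31 of the 54 tested carriers, also untested. The shares of all genes with opposite signs were not counted, so neither count is read as a trait of the carriers. Given here are 5 of the 31, not among the 9 above, that are among the 3 highest or 3 lowest age differences of either label. The KO-labelled age difference minus the WT-labelled one was -0.72 for Slc22a30, -0.50 for Slco1a4, -0.49 for Abcc4, -0.37 for Slc22a4 and -0.33 for Abcb8. The probe set listed for Slc22a28, Slc22a30 and Slc22a29 together, which entered no gene value, was higher in the KO-labelled arrays by 0.37 at 8 months and 0.52 at 2 months.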

How the results depend on the processing

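Without the expression filter the counts of carriers called for genotype were 3 higher and 3 lower, against 11 and 6. Without the intensity trend 4 were called higher and 4 lower. Median centring left 1 carrier at least 1.5-fold lower at both ages. A limit of 1.3-fold in place of 1.5-fold gave 4 carriers higher at both ages, and a limit of 2-fold gave 0 higher and 0 lower. The shares of all genes called under these other settings were not counted. Whether carriers lost calls more often than genes in general is therefore not known here. For the classes, the difference of each gene was averaged over the ages and the median taken over genes. For basolateral exporters this median, 0.31, was 0.17 without the filter and at the 60th percentile filter. It was 0.35 under median centring, 0.26 after quantile normalization again and 0.27 under cyclic loess. For canalicular exporters the same median, 0.05, was 0.089 under median centring. That setting moved the median of all genes to 0.09 at 2 months and 0.00 at 8 months. No named carrier reversed its direction with a call on either side. The choice of the highest probe set and a model of 1 factor ended no call of a named carrier. No count of age calls changed. No paired analysis was possible because each group is 1 array and the labels give no replicate numbers. Leaving out an array leaves the additive model no residual, so no such fit was made.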
